A study of Mus musculus with 7 samples.

Results

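A set of 47 genes for enzymes of amino acid breakdown and one-carbon metabolism was followed on 7 mouse expression arrays. The members were taken by gene name from a fixed list of these enzymes, and all 47 were on the array, out of 27583 genes and unnamed probes. They fall into 9 pathways, which are those of tyrosine (4 genes), tryptophan (5), methionine (7), the branched-chain amino acids (10), histidine and folate (4), glycine and serine (8), lysine, proline and ornithine (3), glutamate and transamination (4), and the route from pyrimidines to beta-alanine (2).

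All cells came from C57BL/6 mice. The 3 iHep arrays hold induced hepatocyte-like cells that were made from embryonic fibroblasts. They are 3 types of iHep cells with 1 array each, labelled iHep (4α1), iHep (4α2) and iHep (4α3). The study is known to have made iHep cells by giving fibroblasts the liver factor Hnf4α together with a Foxa factor, and the labels do not explain the last digit in the name of a type. The hepatocyte array holds hepatocytes of adult liver, with no closer age in the labels. The 3 MEF arrays hold embryonic fibroblasts prepared individually from embryos 13.5 days after mating, which carried no stated treatment. MEF 2 and MEF 3 differed by less than repeated spots of a probe on a single array do, with a spread 0.425 to 0.786 times that of repeated spots. For MEF 1 against MEF 2 that ratio was 2.34 to 3.861. The mean of MEF 2 and MEF 3 was used as 1 sample, which gave iHep n = 3, hepatocyte n = 1 and MEF n = 2. The p-values measure the spread between these samples only, which for iHep is the spread between types. MEF 1 and all iHep arrays shared a slide and scan, MEF 2 and MEF 3 shared another, and the hepatocyte array lay on one of its own, so that its slide and hepatocyte group cannot be told apart.

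Adult liver breaks down most of the amino acids that reach it from the gut. Its parenchymal cells carry dedicated chains of enzymes for tyrosine, tryptophan, histidine and methionine, several of which are used as marks of a mature hepatocyte. The branched-chain amino acids are an exception, since their first step, a transamination, takes place mainly outside the liver, and their later mitochondrial steps run in most tissues. The folate and methionine cycles carry single carbon units for nucleotide synthesis and for methylation, and glycine, serine, sarcosine and dimethylglycine feed them. Dividing cells use other isozymes in some of these steps than adult liver does.

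The level of a gene is its log2 signal after each array was scaled to its own 75th percentile, which is thus at 0. iHep values are given in the order (4α1), (4α2), (4α3), and MEF values in the order MEF 1, MEF 2, MEF 3. A probe counts as detected where the scanner software marked it well above background. A log2 change is a difference of group mean levels ± its standard error from limma fitted to 19133 genes. A gene was called at a Benjamini-Hochberg adjusted p under 0.05 over those genes, and all adjusted p-values are limma's. The hepatocyte array has no replicate, and the fit gave it the spread of the iHep and MEF samples. Hpd, Tdo2, Kmo, Ftcd, Dmgdh, Agxt, Sds and Dpys were detected on no iHep and no MEF array. The spread in their tests is that of values below background, so their adjusted p-values measure no spread of expression and are not given. A probe's level can be compared between arrays but not with another probe's.

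The labels were set against marker lists. Of 10 hepatocyte markers, 7 were detected on each iHep array (Cyp2e1, Cyp7a1 and Ugt2b1 were not), all 10 on the hepatocyte array and none on the MEF arrays. The 7 include Hnf4a, the factor given to the fibroblasts, and its introduced and own transcripts were not told apart. Their summed linear signal, relative to the 75th percentile, was 195.5 to 701.3 on the iHep arrays, 3138 or more on the hepatocyte array, where Alb was saturated, and under 0.05 on the MEF arrays. All 8 fibroblast markers were detected on the iHep arrays, with a sum of 76.86 to 137.1, while the hepatocyte array had 6 of 8 (not Thy1 and Twist1) and a sum of 2.051, and the MEF arrays had all 8 and sums of 998 to 1006. All 6 intestinal epithelium markers were detected on the iHep arrays, with a sum of 240.9 to 836.2, against 7.327 on the hepatocyte array (Cdx2 not detected) and 0.234 to 0.267 on the MEF arrays. Of 7 macrophage markers, 2 or 3 were detected on the iHep arrays, with a sum of 0.261 to 0.4821, while the hepatocyte array had all 7 and a sum of 6.185, and the MEF arrays had 6 (not Clec4f) and sums of 4.512 to 7.466. Of 6 endothelial markers, 2 were detected on each iHep array, with a sum of 0.2206 to 2.302, against all 6 and 6.116 on the hepatocyte array and 3 or 4 and 0.8997 to 1.553 on the MEF arrays. The part of these other cell types in the results below was not tested. In bulk samples, fewer cells of a type and less RNA per cell cannot be told apart.

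Between iHep and MEF, 7 of the 47 enzyme genes rose and 3 fell. The 7 are 14.9% of the members, while 10.1% of all tested genes rose, and the 3 are 6.38%, while 13.2% of all tested genes fell. The members' median log2 change was 0.47, against -0.04 for all tested genes. The genes that rose were Gldc, Pipox and Prodh by 4.58 or more on the log2 scale, and Aldh6a1, Cbs, Shmt1 and Mat2a by 1.94 or less. Those that fell were Bcat1, Kynu and Oat. Between hepatocyte and MEF, 43 members rose (91.5%, against 28.4% of all tested genes) and 2 fell (4.26%, against 25.1%), with a median change of 7.55 against 0.14 for all tested genes. Between iHep and hepatocyte, 2 members were higher (4.26%, against 22.1% of all tested genes) and 43 lower (91.5%, against 27.1%), with a median of -5.76 against -0.17. These comparisons share arrays, so they are not independent of each other. Hpd, Hgd, Tdo2, Kmo, Kynu, Haao, Acmsd, Mat1a, Bhmt, Hal, Uroc1, Ftcd, Dmgdh, Agxt, Sds and Dpys were tested only through the hepatocyte array. None of them was detected on all iHep arrays or on all MEF arrays. All except Acmsd are among the 43 that rose in hepatocyte and the 43 that were lower in iHep. For them the filter itself favoured a high hepatocyte level, so their calls are no separate support.

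**Figure D1:**
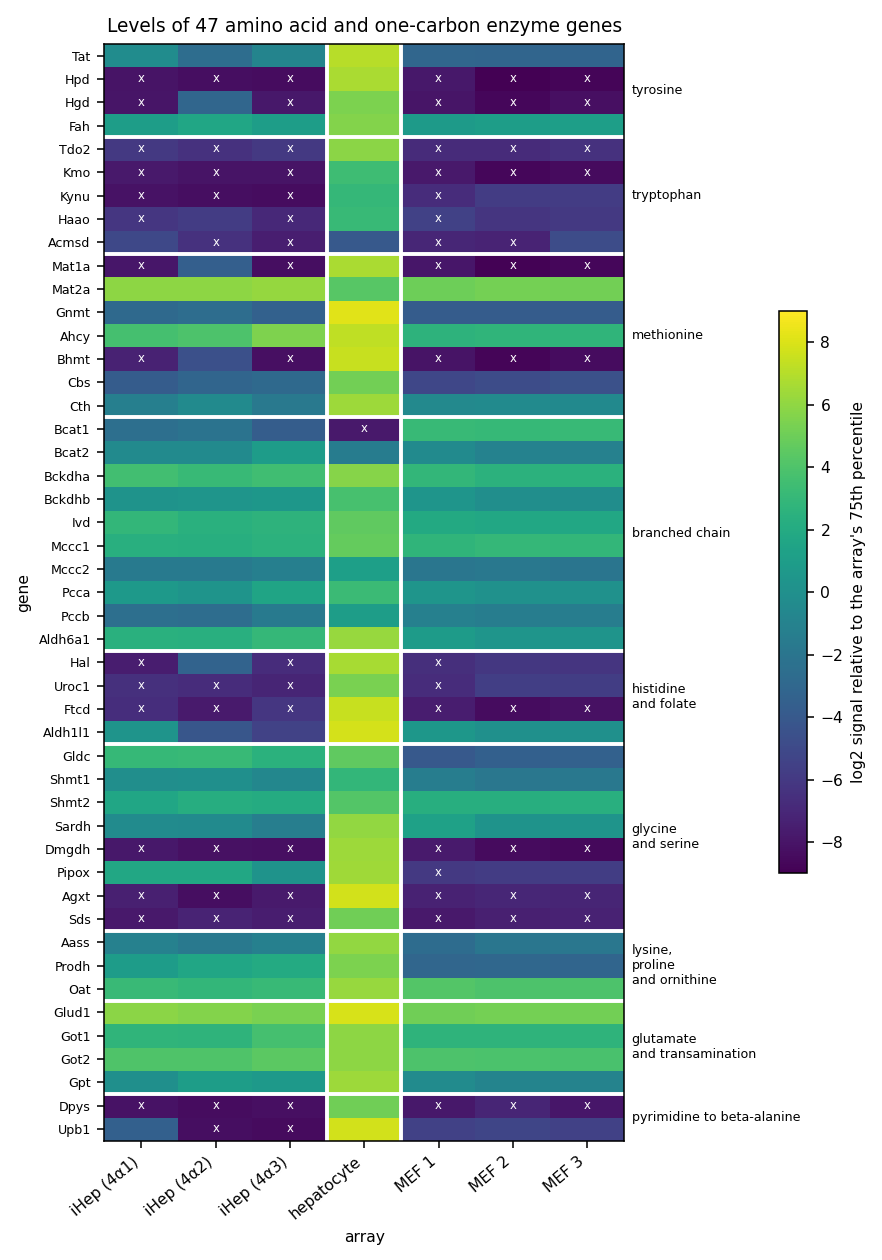
Level of each of the 47 genes (rows, by pathway) on each array (columns, iHep types, hepatocyte, then MEF), in log2 units with the 75th percentile of each array at 0. A cross marks a probe that was not well above background. The hepatocyte column has a single cross, at Bcat1, while 30 genes have no cross on any iHep array.

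By detection alone, 32, 35 and 30 of the 47 members were above background on the iHep arrays, 46 on the hepatocyte array (all except Bcat1), and 30, 35 and 36 on the MEF arrays. Of the 47, 30 were detected on all 3 iHep arrays, 7 on 1 of them and 10 on none. The 10 were Hpd, Tdo2, Kmo, Kynu, Uroc1, Ftcd, Dmgdh, Agxt, Sds and Dpys, and of these all except Kynu and Uroc1 were also undetected on every MEF array. Kynu and Uroc1 were detected on MEF 2 and MEF 3 but not on MEF 1, which shared the iHep slide. Over all probes, detection was 68.7% on MEF 2 and 67.0% on MEF 3. It was 60.2% on MEF 1, 61.0%, 63.6% and 62.4% on the iHep arrays and 62.4% on the hepatocyte array. The part of the slide in these counts was not tested. Relative to the hepatocyte array, the mean iHep level of 23 members was under 1%, of 6 between 1% and 10%, and of 18 at 10% or more. The 18 include Acmsd, which was detected on 1 iHep array only. Detected on all iHep arrays, with each of them at 10% or more, were 14 members. The 18 and the 14 both include Bcat1, whose hepatocyte level was below background, so its percentage gives no size.

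The 3 genes that rose furthest in iHep act in the breakdown of glycine, of sarcosine and pipecolic acid, and of proline. Gldc encodes the decarboxylase of the mitochondrial glycine cleavage system, which hands a carbon unit of glycine to folate. Its levels were 3.07, 3.13 and 2.53 on the iHep arrays, 4.58 on the hepatocyte array and -4.00, -3.45 and -3.44 on the MEF arrays. Every iHep array stood far above every MEF array and below the hepatocyte array. The log2 change in iHep was 6.63 ± 0.30, which is 98.94-fold (adjusted p = 0.000586), and the iHep types held 35.1%, 36.7% and 24.2% of the hepatocyte level of Gldc. Within the slide that MEF 1 shared with the iHep arrays, the change of Gldc was 6.91 ± 0.36 (adjusted p = 0.00835). That fit, here and for the genes below, has MEF 1 as its only MEF array, so its error comes from the spread among the 3 iHep types alone and MEF 1 is assumed to vary like them.

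Pipox encodes a peroxisomal oxidase of pipecolic acid, a lysine product, and of sarcosine. It had levels of 1.80, 1.78 and 0.26 on the iHep arrays, 6.40 on the hepatocyte array and -6.01, -5.79 and -5.75 on the MEF arrays. It was detected on all iHep arrays but on only 2 of the 3 MEF arrays, MEF 2 and MEF 3. Its log2 change in iHep was 7.17 ± 0.54, or 144.5-fold (adjusted p = 0.00195). The undetected MEF 1 is part of that MEF mean, and over the alternatives the change of Pipox ran from 4.61 to 7.69, so the fold is not exact. On the shared slide the only MEF array is MEF 1, where Pipox was not detected, so no size is given for that slide. The iHep types held 4.13%, 4.08% and 1.42% of the hepatocyte level of Pipox.

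Prodh encodes proline dehydrogenase, the first step of proline breakdown. Its levels were 0.97, 1.63 and 2.01 on the iHep arrays, 5.44 on the hepatocyte array and -3.03, -3.02 and -3.12 on the MEF arrays. The groups did not overlap. Prodh rose by 4.58 ± 0.34 in iHep, or 23.97-fold (adjusted p = 0.00195), by 4.56 ± 0.49 within the shared slide with its 1 MEF array (adjusted p = 0.0235), and reached 4.51%, 7.12% and 9.25% of its hepatocyte level. Prodh was detected on all 7 arrays.

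The array's own annotation (genome build mm8) places the probe of Gldc at chr19:30164661-30164720, that of Pipox at chr11:77696966-77697025 and that of Prodh at chr16:17985361-17985420. The promoters of these 3 genes are shown because they rose together on the iHep arrays. Each sequence runs from 250 bases before to 30 bases after the RefSeq gene start in build GRCm38.p6, on the minus strand, and capitals mark a motif match, here that of HNF4, a family of liver and gut factors.
Pipox, chr11:77893843-77894122: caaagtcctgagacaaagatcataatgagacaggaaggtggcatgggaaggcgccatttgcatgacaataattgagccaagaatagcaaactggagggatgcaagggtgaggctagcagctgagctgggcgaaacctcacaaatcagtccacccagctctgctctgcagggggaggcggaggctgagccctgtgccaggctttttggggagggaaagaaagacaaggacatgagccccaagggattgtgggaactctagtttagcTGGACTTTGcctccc
Gldc, chr19:30175412-30175691: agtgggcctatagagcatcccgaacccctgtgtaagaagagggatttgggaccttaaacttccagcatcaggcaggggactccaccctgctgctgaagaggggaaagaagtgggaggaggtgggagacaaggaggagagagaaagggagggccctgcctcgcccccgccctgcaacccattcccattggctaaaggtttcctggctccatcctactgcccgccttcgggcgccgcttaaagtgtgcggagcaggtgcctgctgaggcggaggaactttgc
Prodh, chr16:18089161-18089440: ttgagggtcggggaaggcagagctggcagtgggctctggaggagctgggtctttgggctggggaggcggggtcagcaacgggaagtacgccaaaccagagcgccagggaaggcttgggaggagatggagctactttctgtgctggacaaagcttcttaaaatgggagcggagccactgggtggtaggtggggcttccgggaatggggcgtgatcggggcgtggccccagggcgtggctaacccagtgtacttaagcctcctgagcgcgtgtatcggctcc
The motifs searched on both strands were CAAAGTCCA for HNF4, GTTAATNAT for HNF1, and TGTTTAC or TGTTTGC for the FOXA factors. The HNF4 letters lie in the Pipox sequence as TGGACTTTG, at bases 16 to 24 after the start, and none of the motifs is in the sequences of Gldc and Prodh. Over 32851 mouse promoters of full table length, 0.475% held the HNF4 letters, 0.801% the HNF1 letters and 8.48% the FOXA letters. Of the members, 41 matched the RefSeq promoter table, with 46 promoters in all. HNF4 letters were in the Pipox promoter alone, HNF1 letters in that of Got2 alone, and FOXA letters in those of Aass, Acmsd and Tdo2. A match is a run of letters and not a shown binding site. The members with no entry in that table were Sds, Gpt, Dpys, Kynu, Cth and Mat1a.

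**Figure D2:**
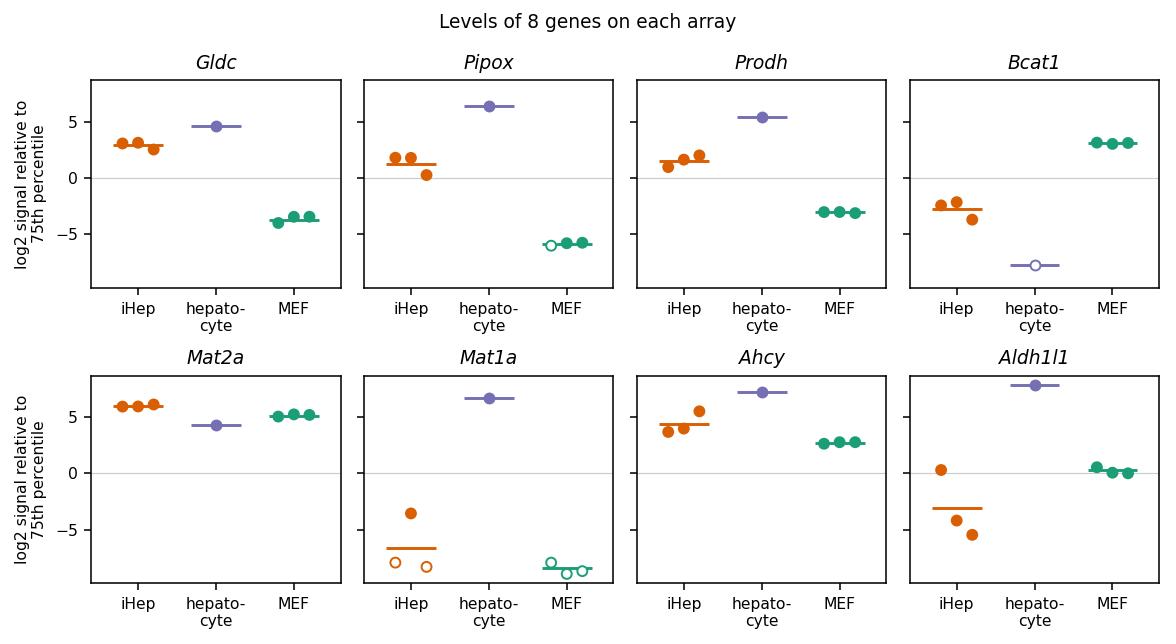
Level of 8 genes on each array (vertical axis, log2 signal relative to the 75th percentile), with 1 point per array, iHep types from left to right as (4α1), (4α2), (4α3) and MEF as 1, 2, 3. Lines are group means, with MEF 2 and MEF 3 averaged first, and open points mark arrays without detection. Gldc, Pipox and Prodh lie between MEF and hepatocyte in all iHep types, Bcat1 runs the other way, and Mat1a and Aldh1l1 differ among the types.

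Of the 8 glycine and serine genes, 3 rose in iHep and all 8 rose in hepatocyte, both against MEF. Shmt1, the cytosolic serine hydroxymethyltransferase that exchanges serine and glycine, had levels of -0.10, -0.03 and -0.68 on the iHep arrays, 2.89 on the hepatocyte array and -1.38, -1.86 and -1.78 on the MEF arrays. It rose by 1.33 ± 0.29 in iHep (2.506-fold, adjusted p = 0.0333). The call for Shmt1 was lost within the shared slide (1.103 ± 0.373, adjusted p = 0.168) and without MEF 1 (1.55), iHep (4α1) (1.24) or iHep (4α2) (1.21), with adjusted p from 0.0892 to 0.0976 without one of these arrays, and with no filter on dim probes (adjusted p = 0.0524). Shmt2, its mitochondrial counterpart, had levels of 1.63, 2.20 and 2.07 on the iHep arrays, 4.20 on the hepatocyte array and 2.29, 2.30 and 2.35 on the MEF arrays. For Shmt2 the difference between iHep and MEF was -0.34 ± 0.24 (adjusted p = 0.35).

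Sardh and Dmgdh encode the mitochondrial dehydrogenases of sarcosine and dimethylglycine, which lie on the path from choline to glycine. Sardh had levels of -0.29, -0.37 and -1.28 on the iHep arrays, 6.07 on the hepatocyte array and 1.28, 0.26 and 0.29 on the MEF arrays, so every iHep array was below every MEF array. Its change in iHep, -1.43 ± 0.46, was not called (adjusted p = 0.086). Dmgdh was detected on the hepatocyte array alone, at 6.33, and there it was at least 5992-fold above MEF. Agxt, the peroxisomal aminotransferase that clears glyoxylate, was likewise detected on the hepatocyte array alone, at 7.79 (at least 16520-fold above MEF). Sds, serine dehydratase, showed the same pattern at 5.11 (at least 2578-fold). In iHep these 3 genes were lower than in hepatocyte by at least 5344-fold, 14730-fold and 2299-fold, in that order.

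Of the 7 methionine genes, 2 rose in iHep, while 6 rose and 1 fell in hepatocyte, all against MEF. Mat1a encodes the S-adenosylmethionine synthetase of adult liver, and Mat2a the form of fetal liver, dividing cells and most other tissues. Among iHep arrays Mat1a was detected on iHep (4α2) alone, at -3.56 or 0.0814% of the hepatocyte level, and on the hepatocyte array its level was 6.71. It was detected on no MEF array, and in hepatocyte it was at least 7768-fold above MEF (adjusted p = 0.00374). Mat2a had levels of 5.93, 5.94 and 6.12 on the iHep arrays, 4.30 on the hepatocyte array and 5.05, 5.24 and 5.19 on the MEF arrays. All iHep arrays lay above all MEF arrays, and the hepatocyte array below them. Mat2a rose by 0.87 ± 0.18 in iHep (1.822-fold, adjusted p = 0.029) and fell by 0.83 ± 0.24 in hepatocyte (1.781-fold, adjusted p = 0.0378), both against MEF, and was 1.70 ± 0.23 higher in iHep than in hepatocyte (adjusted p = 0.00404).

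The difference between iHep and MEF in Mat2a was not called within the shared slide (0.95 ± 0.24, adjusted p = 0.104), nor without MEF 1 (0.78), iHep (4α1) (0.90) or iHep (4α2) (0.89), nor with no filter on dim probes (adjusted p = 0.062). The lower level of Mat2a in hepatocyte than in MEF was not called without those same arrays either, nor with no filter (adjusted p = 0.0814) or with only these 2 groups in the fit (adjusted p = 0.0852). The higher level in iHep than in hepatocyte stayed called under all 16 alternatives run for it, some of which are the same fit. Its probe lies at chr6:72362371-72362430 (mm8).

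Downstream of S-adenosylmethionine, Gnmt spends methyl groups on glycine and Ahcy cleaves the S-adenosylhomocysteine that is left. Gnmt had levels of -2.85, -2.59 and -3.41 on the iHep arrays, 8.22 on the hepatocyte array and -3.77, -3.76 and -3.74 on the MEF arrays. Every iHep array exceeded every MEF array, but the change of 0.81 ± 0.29 was not called (adjusted p = 0.111; without iHep (4α3) 1.04, adjusted p = 0.0313). The iHep types held 0.0315% to 0.0555% of the hepatocyte level of Gnmt. Ahcy had levels of 3.68, 3.98 and 5.51 on the iHep arrays, 7.27 on the hepatocyte array and 2.63, 2.77 and 2.77 on the MEF arrays. It too was above MEF on every iHep array and most of all on iHep (4α3), at 29.6% of the hepatocyte level against 8.31% and 10.2% in the other types. The change of Ahcy, 1.69 ± 0.59, missed the threshold (adjusted p = 0.104), and without iHep (4α3) it was 1.13 and called (adjusted p = 0.0306). All 3 probes of Ahcy gave iHep minus MEF differences between 1.69 and 1.86.

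Homocysteine is remethylated in liver by Bhmt or led to cysteine by Cbs and Cth. Bhmt was detected on iHep (4α2) at -4.61, or 0.0224% of the hepatocyte level, on the hepatocyte array at 7.52, and on no other array. In hepatocyte Bhmt was at least 13650-fold above MEF (adjusted p = 0.00121). Cbs had levels of -3.75, -3.10 and -2.85 on the iHep arrays, 5.17 on the hepatocyte array and -5.19, -4.78 and -4.55 on the MEF arrays. It rose by 1.69 ± 0.35 in iHep (3.232-fold, adjusted p = 0.0277) but held only 0.206%, 0.323% and 0.384% of its hepatocyte level. The call for Cbs was lost within the shared slide (1.95 ± 0.45, adjusted p = 0.0866), without MEF 1 (1.43, adjusted p = 0.147), without iHep (4α2) (1.63, adjusted p = 0.0765), and with another background correction and normalization (0.72, adjusted p = 0.0511). Cth, at -1.21, -0.39 and -1.72 on the iHep arrays, 6.40 on the hepatocyte array and -0.50, -0.37 and -0.44 on the MEF arrays, was not called in iHep against MEF (-0.65 ± 0.42, adjusted p = 0.317).

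Of the 10 branched-chain genes, 1 rose (Aldh6a1) and 1 fell (Bcat1) in iHep against MEF. Bcat1 encodes the cytosolic branched-chain aminotransferase, an enzyme of embryonic and dividing cells. Its levels were -2.44, -2.15 and -3.70 on the iHep arrays, it was not above background on the hepatocyte array, and its levels were 3.14, 3.03 and 3.11 on the MEF arrays. Bcat1 fell by 5.87 ± 0.50 in iHep (58.28-fold, adjusted p = 0.00278) and was at least 465.1-fold lower in hepatocyte than in MEF (adjusted p = 0.000434). Within the shared slide with its 1 MEF array it fell by 5.90 ± 0.72 in iHep (adjusted p = 0.0297). It was at least 7.979-fold higher in iHep than in hepatocyte (adjusted p = 0.00344). A second probe of Bcat1 was above background on only 3 of the 7 arrays and gives no size. The probe used lies at chr6:144956327-144956386 (mm8). The summed fibroblast markers ran in the same order over the groups, as did the mean levels of 7 of the 8. Lum was lower in iHep than in hepatocyte (-2.83 ± 0.79, adjusted p = 0.0354). The part of these markers in the fall of Bcat1 was not tested.

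Bcat2, the mitochondrial aminotransferase, had levels of -0.41, -0.41 and 0.92 on the iHep arrays, -1.45 on the hepatocyte array and from -1.08 to -0.38 on the MEF arrays. None of its comparisons was called, and its 3 probes disagreed in sign between iHep and MEF. The E1 subunits of the branched-chain ketoacid dehydrogenase, Bckdha and Bckdhb, differed from MEF by 0.65 ± 0.24 and 0.25 ± 0.24 in iHep, neither called. In hepatocyte they were 7.976-fold and 12.24-fold above MEF (adjusted p = 0.00184 and 0.00101). Ivd, the leucine-pathway dehydrogenase of isovaleryl-CoA, had levels of 2.90, 2.41 and 2.66 on the iHep arrays, 4.62 on the hepatocyte array and 1.93, 1.77 and 1.80 on the MEF arrays. Its change of 0.80 ± 0.22 in iHep stood just outside the threshold (adjusted p = 0.0599), and 6 of 19 alternatives called it.

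The 4 carboxylase subunits act later in these routes, Mccc1 and Mccc2 for leucine and Pcca and Pccb for propionyl-CoA. In iHep against MEF they differed by -0.48, 0.47, 0.58 and -0.93 in that order, and none was called (adjusted p = 0.118 to 0.366). Without iHep (4α3) Pccb was called, at -1.22 (adjusted p = 0.023). In hepatocyte all of them were above MEF, by 3.72-fold to 8.616-fold. Aldh6a1, the mitochondrial dehydrogenase that finishes valine and thymine breakdown, had levels of 2.41, 2.36 and 2.96 on the iHep arrays, 6.21 on the hepatocyte array and 0.91, 0.39 and 0.34 on the MEF arrays. It rose by 1.94 ± 0.30 in iHep (3.834-fold, adjusted p = 0.0126), though within the shared slide the change of Aldh6a1, 1.66 ± 0.36, was not called (adjusted p = 0.0772). The iHep types held 7.19%, 6.96% and 10.5% of its hepatocyte level.

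In the tyrosine chain, no gene of its 4 passed the threshold between iHep and MEF, while all 4 rose in hepatocyte. Tat, the aminotransferase that opens the chain, had levels of -0.27, -2.57 and -0.87 on the iHep arrays, 7.07 on the hepatocyte array and -3.09, -3.15 and -3.17 on the MEF arrays. Every iHep array exceeded every MEF array, by amounts that ranged from 0.55 in iHep (4α2) to 2.85 in iHep (4α1) over the MEF mean, and the change of 1.89 ± 0.71 was not called (adjusted p = 0.12). Without iHep (4α2) Tat was called, at 2.56 (adjusted p = 0.014). Hpd, the dioxygenase of the second step, was detected on the hepatocyte array alone, at 6.69 (at least 7668-fold above MEF).

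Hgd, which opens the ring of homogentisate, was detected on iHep (4α2) at -3.06, or 0.274% of the hepatocyte level, and on the hepatocyte array at 5.45 (at least 3254-fold above MEF, adjusted p = 0.00593). Fah, the hydrolase at the end of the chain, was detected everywhere, at 1.05, 1.62 and 1.05 on the iHep arrays, 5.69 on the hepatocyte array and 0.80, 1.04 and 1.06 on the MEF arrays. For Fah the iHep and MEF arrays overlapped (0.31 ± 0.26, adjusted p = 0.43), and hepatocyte was 27.2-fold above MEF (adjusted p = 0.000604).

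Of the 5 tryptophan genes, 1 fell in iHep and 4 rose in hepatocyte, both against MEF. Tdo2, the liver's tryptophan dioxygenase, and Kmo, kynurenine monooxygenase, were detected on the hepatocyte array alone, at 5.84 and 3.41. They were at least 4114-fold and 793.2-fold above MEF there. Kynu, kynureninase, was not above background on any iHep array, had a level of 2.99 on the hepatocyte array, and was above background on MEF 2 and MEF 3 only, at -5.80 and -5.77. Kynu fell in iHep against MEF by the test (-2.05 ± 0.32, adjusted p = 0.0137), but both sides lay near the detection limit and no fold can be given. The fall was not called within the shared slide (adjusted p = 0.0509) or with another background correction and normalization (-0.29, adjusted p = 0.11), and a second probe of Kynu was detected on the hepatocyte array alone. The summed macrophage markers were also lower on every iHep array than on any other array. Singly, Cd68 was lower on the hepatocyte array (-3.12) than on the iHep arrays (-2.94, -2.19 and -2.50). Clec4f was undetected on all iHep and MEF arrays. The part of these markers in the values of Kynu was not tested.

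Haao, the dioxygenase that leads on to quinolinate and NAD, was detected on iHep (4α2) at -5.81, on the hepatocyte array at 3.14, and on MEF 2 and MEF 3 at -6.22 and -6.03. In hepatocyte Haao was called above MEF, 501.3-fold by the fitted means. The undetected MEF 1 is part of that MEF mean. Over the alternatives the log2 change of Haao ran from 6.08 to 9.27, so the fold is not exact. Acmsd, the decarboxylase that diverts the pathway from NAD, was dim everywhere, at -5.09 on iHep (4α1), -3.98 on the hepatocyte array and -4.84 on MEF 3, and undetected on the others. Acmsd was called in no comparison. Its hepatocyte minus MEF change, 2.57 ± 1.04 (adjusted p = 0.0901), was called with only these 2 groups in the fit (adjusted p = 0.0265) and without MEF 3 (adjusted p = 0.0424), iHep (4α1) (adjusted p = 0.0428) or iHep (4α3) (adjusted p = 0.0468).

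Hal, Uroc1 and Ftcd are 3 of the enzymes of histidine breakdown, and act in this order on the route from histidine through urocanate to the folate pool. Among iHep arrays, Hal was detected on iHep (4α2) alone, at -3.29 or 0.104% of the hepatocyte level, and Uroc1 and Ftcd on none. On the hepatocyte array the levels of Hal, Uroc1 and Ftcd were 6.62, 5.38 and 7.48. All were called above MEF, with Ftcd at least 13250-fold higher. Hal and Uroc1 were detected on MEF 2 and MEF 3, at levels from -6.21 to -5.65.

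Aldh1l1, the cytosolic dehydrogenase that oxidises formyl-folate and a liver-rich enzyme, differed most among the iHep types of the genes detected on all iHep arrays. Its levels were 0.30 on iHep (4α1), -4.19 on iHep (4α2) and -5.46 on iHep (4α3), with 7.84 on the hepatocyte array and 0.55, 0.06 and 0.01 on the MEF arrays. iHep (4α1) thus lay among the MEF arrays and the other types far below them. The change of -3.40 ± 1.76 was not called (adjusted p = 0.223), and without iHep (4α1) it was -5.11 and called (adjusted p = 0.012). In hepatocyte Aldh1l1 was 187.6-fold above MEF (adjusted p = 0.0455), a call that 6 of 16 alternatives lost, among them those without MEF 1 (adjusted p = 0.122) and without iHep (4α2) (adjusted p = 0.0634).

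For lysine, proline and ornithine, Prodh is described above. Aass, the double enzyme that starts lysine breakdown in mitochondria, had levels of -1.07, -1.69 and -1.19 on the iHep arrays, 6.12 on the hepatocyte array and -2.65, -1.95 and -1.85 on the MEF arrays. Every iHep array was above every MEF array, with a change of 0.96 ± 0.33 that was not called (adjusted p = 0.102). Oat, ornithine aminotransferase, had levels of 3.20, 2.95 and 3.12 on the iHep arrays, 6.20 on the hepatocyte array and 4.22, 3.97 and 3.94 on the MEF arrays. The groups did not overlap, and Oat fell by 0.997 ± 0.195 in iHep (1.996-fold, adjusted p = 0.0239) while it rose in hepatocyte (4.341-fold, adjusted p = 0.00267). The call for the fall was lost within the shared slide (-1.13 ± 0.25, adjusted p = 0.0808), without MEF 1 (-0.87, adjusted p = 0.13), and without iHep (4α1) (-1.05) or iHep (4α2) (-0.93).

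None of the 4 enzymes around glutamate was called between iHep and MEF. Glud1, glutamate dehydrogenase, and Got1 and Got2, the cytosolic and mitochondrial aspartate aminotransferases, differed by 0.51, 0.32 and 0.28 between iHep and MEF. In hepatocyte they rose 6.702-fold, 9.255-fold and 4.174-fold. Gpt, alanine aminotransferase, had levels of -0.04, 1.05 and 0.71 on the iHep arrays, 6.34 on the hepatocyte array and -0.35, -0.88 and -0.93 on the MEF arrays. All iHep arrays exceeded all MEF arrays for Gpt, and the change of 1.20 ± 0.40 was not called (adjusted p = 0.0903). It was 125-fold above MEF in hepatocyte (adjusted p = 0.000666).

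Dpys and Upb1 carry pyrimidine breakdown from dihydropyrimidines to beta-alanine. Dpys was detected on the hepatocyte array alone, at 5.10 (at least 2544-fold above MEF). Upb1 was detected on iHep (4α1) at -3.49, on the hepatocyte array at 7.79 and on all MEF arrays, at -5.52, -5.21 and -5.49. iHep (4α1) was above all MEF arrays and the other types were undetected. The change of Upb1 in iHep against MEF, -1.32 ± 1.64, was not called (adjusted p = 0.599), and rests on fitted values of the undetected types. Without iHep (4α1) the fit called it lower (adjusted p = 0.00716), with both remaining types below background, so no size is given.

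**Figure D3:**
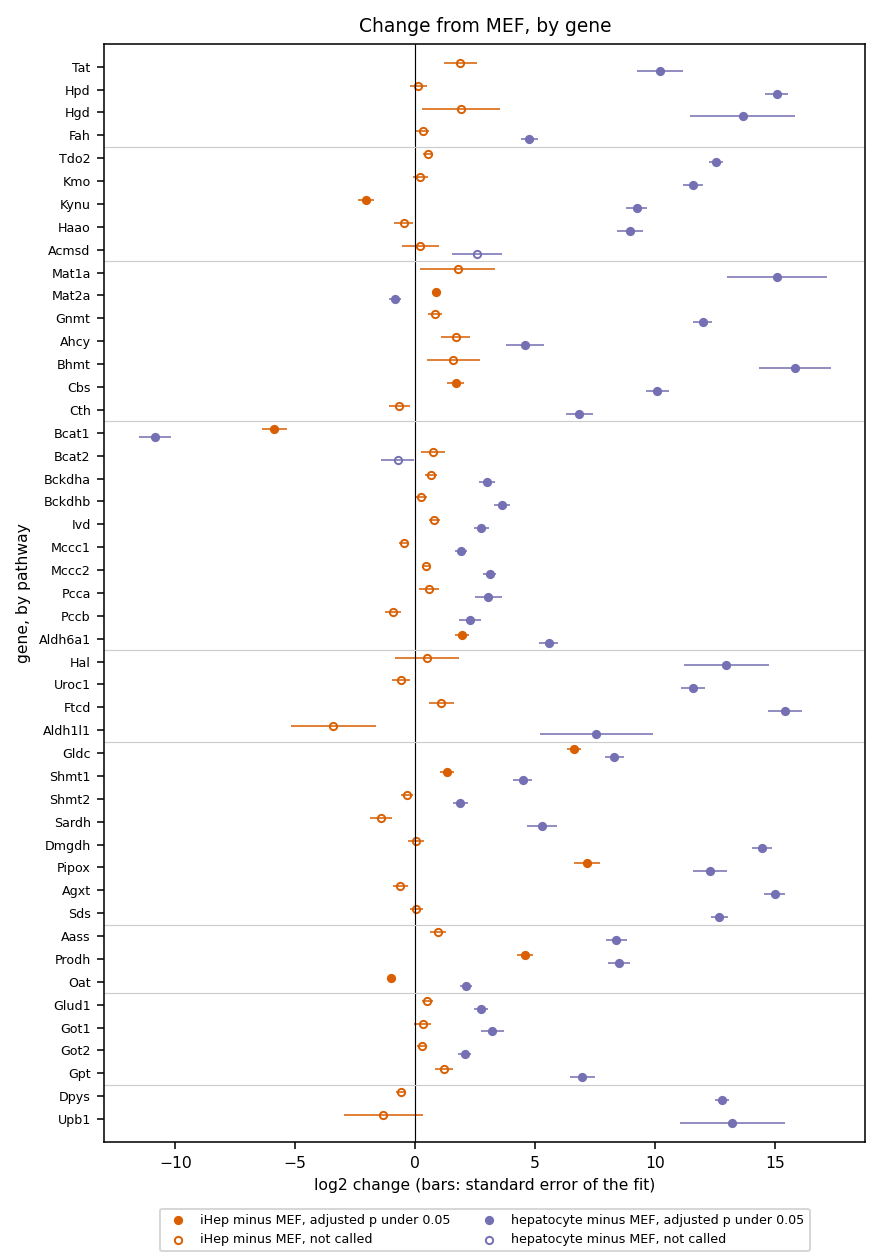
Log2 change from MEF (horizontal axis) of each gene (vertical axis, by pathway) in iHep and in hepatocyte, with bars of 1 standard error from limma and filled points at an adjusted p under 0.05. In hepatocyte 43 genes lie right of 0 and are filled, while in iHep 10 points are filled, with Pipox, Gldc and Prodh at 4.58 or more. Values of genes not detected in a group are fitted values and not folds.

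Set against hepatocyte, the median log2 difference of iHep was below 0 in all 9 pathways. It was -2.42 over the 10 branched-chain genes, -2.56 over the 4 genes around glutamate, -3.91 over the 3 of lysine, proline and ornithine and -5.92 over the 8 of glycine and serine. The median was -8.41 over the 7 methionine genes, -10.03 over the 4 of tyrosine, -11.28 over the 5 of tryptophan, -12.32 over the 4 of histidine and folate and -13.95 over the 2 from pyrimidines to beta-alanine. Bounds were then set for genes undetected on every array of the lower group. The tryptophan median was -9.45, that of histidine and folate -11.95 and that of the pyrimidine route -12.85, and the others did not change. Haao, Hal, Upb1 and Hgd, each detected on a single iHep array, kept their fitted values. They enter the medians of tryptophan, histidine and folate, the pyrimidine route and tyrosine, in that order, so these medians are not bounds. The pathways were not tested against each other. Among called members the smallest deficits were those of Gldc (-1.67 ± 0.38, adjusted p = 0.0191), Got2 (-1.79 ± 0.27, adjusted p = 0.00539) and Ivd (-1.96 ± 0.28, adjusted p = 0.00468). The deficit of Gldc was not called with quantile normalization of the processed signals (-1.07, adjusted p = 0.0676) or with the authors' deposited processed values (-1.07, adjusted p = 0.0683), and it was called with normexp background correction and quantile normalization (-1.09, adjusted p = 0.0362). That of Ahcy (-2.88 ± 0.75, adjusted p = 0.0288) was lost under 8 of 16 alternatives. Among these, the fits with only the 2 groups compared, without MEF 1 and without MEF 2 and MEF 3 are the same fit.

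**Figure D4:**
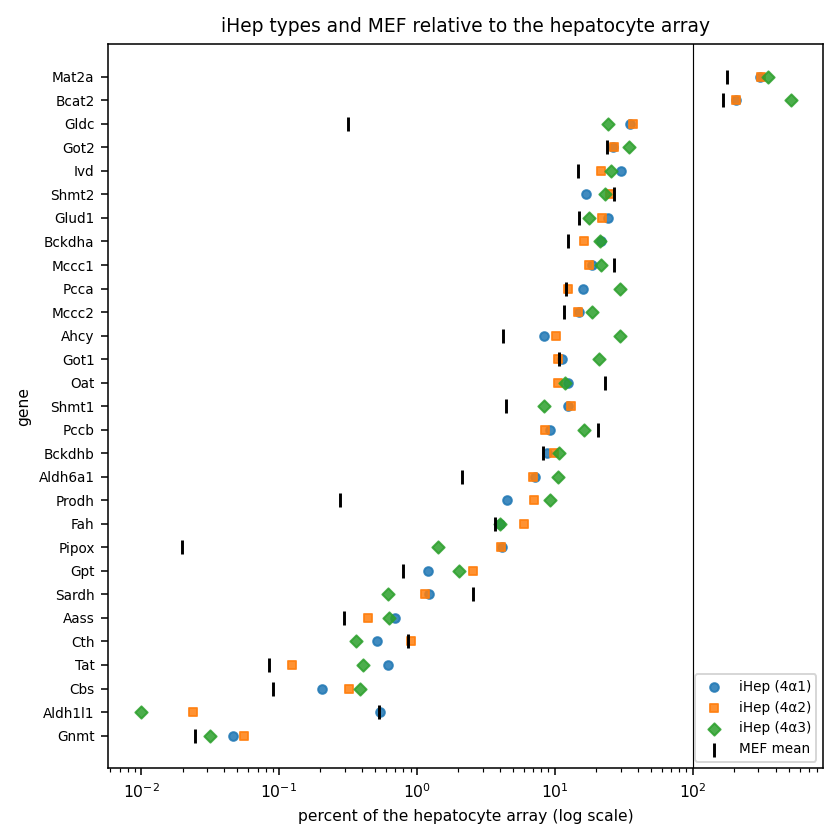
Level on each iHep array as a percentage of the hepatocyte array (horizontal axis, log scale) for the 29 genes detected on every iHep array and on the hepatocyte array, with the MEF mean as a bar. Gldc, Pipox and Prodh stand furthest to the right of their MEF bars, only Mat2a and Bcat2 lie right of the line that marks the hepatocyte level, and the points of Aldh1l1 are spread from 0.00994% to 0.537%.

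The 3 iHep types were compared with the MEF array of their own slide. The members' median difference from MEF 1 was 0.19, 0.17 and 0.17 in the types in order, against -0.05, -0.09 and -0.06 for all tested genes. More than 1 log2 unit above MEF 1 lay 11, 13 and 13 members, which are 23.4%, 27.7% and 27.7%, against 15.5%, 16.7% and 16.5% of all tested genes. More than 1 below it lay 5, 8 and 8, which are 10.6%, 17.0% and 17.0%, near or under the 16.8%, 17.2% and 18.2% of all tested genes. Among the 30 genes detected on all iHep arrays, 9 were highest in iHep (4α1), 8 in iHep (4α2) and 13 in iHep (4α3). Of the 7 genes detected on a single iHep array, 5 were on iHep (4α2), which were Hgd, Haao, Mat1a, Bhmt and Hal, and 2 on iHep (4α1), which were Acmsd and Upb1. Over all probes too, detection was highest on iHep (4α2), with 61.0%, 63.6% and 62.4% in the types in order. Haao, at -5.81, lay near the lowest detected level of that array, -6.12. The shares of all genes that were highest in, or detected on, a single type are not given. The summed hepatocyte markers were highest on iHep (4α2), at 701.3 against 425.1 on iHep (4α1) and 195.5 on iHep (4α3). Singly, Alb, Apob, Fgb and Serpina1b were highest on iHep (4α2), while Apoa1 and Ttr were highest on iHep (4α1). Hnf4a was highest on iHep (4α3) and lowest on iHep (4α2), at -0.55, -2.59 and 1.56 in the types in order. With 1 array per type these differences were not tested.

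A wider list of 67 enzymes of the same pathways gave 66 on the array, with Amt not analysed here. Between iHep and MEF 7 of them rose and 8 fell, which are 10.6% and 12.1%, close to the 10.1% and 13.2% of all tested genes, so that the counts set the list apart in neither direction. Between hepatocyte and MEF 45 rose (68.2%, against 28.4% of all tested genes) and 14 fell (21.2%, against 25.1%). Between iHep and hepatocyte 14 were higher (21.2%, against 22.1%) and 45 lower (68.2%, against 27.1%). Those that rose in iHep included Kyat1 and Afmid of the kynurenine pathway, by 2.45 ± 0.31 (adjusted p = 0.00727) and 1.45 ± 0.31 (adjusted p = 0.031), and Gls2, the liver glutaminase, by 2.04 ± 0.38 (adjusted p = 0.0209). Suox, sulfite oxidase, rose by 1.86 ± 0.36 (adjusted p = 0.0227), and Dbt, the core subunit of the branched-chain ketoacid dehydrogenase, by 0.96 ± 0.18 (adjusted p = 0.0216). Chdh, choline dehydrogenase, was detected on all iHep arrays and no MEF array and was at least 3.657-fold higher in iHep (adjusted p = 0.0394).

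Among the genes of the wider list that fell in iHep, Psat1 of serine synthesis fell by 2.34 ± 0.32 (adjusted p = 0.00898), Pycr1 and Aldh18a1 of proline synthesis by 2.24 ± 0.23 and 1.73 ± 0.19 (adjusted p = 0.00458 and 0.00514), and Asns, asparagine synthetase, by 1.07 ± 0.27 (adjusted p = 0.0461). Aldh1l2 and Mthfd2, mitochondrial enzymes of folate-bound carbon, fell by 3.51 ± 0.71 (adjusted p = 0.0265) and 1.53 ± 0.22 (adjusted p = 0.01). Prodh, the opposite step to Pycr1, rose in the same comparison. Summed markers of cell division were 32.84 to 45.93 on the iHep arrays, 7.891 on the hepatocyte array and 30.18 to 33.9 on the MEF arrays.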

How the data were processed

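RNA labelled with Cy3 was hybridised to Agilent 1-colour arrays, 1 per sample. Per the file headers and the submitters' processing notes, Agilent Feature Extraction 9.5.1.1 read the images. The processed signal of each spot, an intensity on a linear scale, was deposited with the background already subtracted and no scaling between arrays, per the file headers. The deposited files also hold flags of 0 or 1 (a unit other than a measurement) for outlier, saturated and well-above-background spots. A table of processed intensity values that the authors deposited correlated with the scanner signal at r = 0.99882 to 0.99989 per array. Its scaling is not stated, and it served as an alternative.

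Control spots and outlier spots (66 to 104 an array) were dropped, and the spots of a probe were averaged, which left 41138 of 41174 probes. The level was log2 signal minus the array's 75th percentile. Of the usable probes, 24358 were named by accession, 6292 by symbol and 2422 by synonym through the RefSeq gene table, 7805 kept the file's name and 261 had none. The brightest probe stood for a gene (12 members had several, and in 3, Bcat2, Dpys and Kynu, their signs differed between iHep and MEF). Genes were tested if all arrays of 1 or more groups had them well above background (19133 of 27583, all 47 members). The 3 groups were fitted together with limma 3.58.1 in R 4.3.3 (lmFit, eBayes), with Benjamini-Hochberg adjustment and calls under 0.05, after a test on simulated data. Between 60.2% and 68.7% of probes were well above background, and the number of arrays limits precision.

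"At least N-fold" sets the brighter group's mean against, per array of the undetected group, the higher of its lowest detected level and the probe's own. All 47 members were to be accounted for, and of the wider enzyme list up to 2 called genes per pathway with the largest change were named. The members and lists were chosen with earlier results of these data known. The design planned 3 separate MEF samples. The merging of MEF 2 and MEF 3 is a departure from it. Alternatives covered background correction, normalization, filter, probe choice, slide, pairing and each array left out. Promoter sequences are RefSeq's, build GRCm38.p6.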

Additional observations from a re-analysis of the deposited data

Results flagged for a closer look

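Among genes detected on all 7 arrays, 6 had all iHep arrays on one side of every MEF array and the hepatocyte array on the other. They are listed for that order. Kynu, Agxt and Dpys showed the same order but were detected on no iHep array, and they are left out here. The share of all tested genes with such an order is not given. The choice of the 6 by this order fixes the sign of iHep minus hepatocyte and favours its size. The differences are therefore given as descriptions, and the difference between the iHep and hepatocyte changes was not tested apart from that choice. Mat2a was above MEF in iHep and below it in hepatocyte, with iHep minus hepatocyte at 1.70 ± 0.23 (standard error from limma).

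The other 5 were below MEF in iHep and above it in hepatocyte. Their iHep minus hepatocyte differences were -6.72 ± 0.58 for Sardh, -3.20 ± 0.44 for Pccb and -3.11 ± 0.25 for Oat. They were -2.38 ± 0.24 for Mccc1 and -2.23 ± 0.30 for Shmt2. Of the 6, only Mat2a and Oat were called between iHep and MEF. The iHep and hepatocyte arrays lay on different slides, and the part of the slide was not tested.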

How the results depend on the processing

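Gldc and Prodh (19 of 19 alternatives) and Pipox and Bcat1 (18 of 18) stayed called between iHep and MEF (in slide 1 with MEF 1 as the only MEF array, where Pipox was undetected), and no called value of any member reversed. The count of members that rose in iHep, 7, became 13 with 3 separate MEF samples (all genes 3158 higher and 4148 lower, against 1924 and 2534) and 3 with slide as a block, within slide 1 (MEF 1 and the iHep arrays), or without MEF 2 and MEF 3 together, an alternative chosen after seeing the data (all genes 752 and 916). Without single arrays it ran from 4 (without MEF 1) to 9. The count that fell, 3, became 1 within slide 1 or with the slide block, 1 where probes had to be detected on every array (28 members tested), and 2 to 4 without single arrays. Without MEF 1, 682 genes rose and 956 fell over the whole array. Between hepatocyte and MEF, 43 became 26 and 2 became 1 under that stricter filter. The count of 2 that fell was also 1 with no filter on dim probes and with only the 2 groups in the fit, and ran from 1 to 2 without single arrays. Between iHep and hepatocyte the same filter gave 1 higher and 26 lower. It tests fewer genes. For the other changes the cause was not tested. Over all settings the values of members kept direction and side of the threshold in 821 of 874 cases for iHep against MEF, 716 of 733 for hepatocyte against MEF and 722 of 733 for iHep against hepatocyte. Signs changed only among uncalled values, 30 times, in 8 members. Some alternatives are the same fit for a comparison, so the counts of alternatives and cases are not counts of independent checks. Between iHep and MEF, the slide block, slide 1 alone and leaving out MEF 2 and MEF 3 together coincide. Fitting only those 2 groups repeats the main fit there. Between iHep and hepatocyte, the fits with only these 2 groups, without MEF 1 and without MEF 2 and MEF 3 coincide. With the replicate block 8 members rose and 4 fell (all genes 2367 and 3081). MEF and iHep arrays of equal number correlated at 0.029, -0.015 and -0.0005 in their deviations and not every array correlated best with its own number, so the numbers do not pair the samples.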
